A study of Mus musculus with 12 samples.

Results

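The genes described here are 9 JmjC histone demethylase genes of the mouse: Kdm2a, Kdm2b, Kdm3a, Kdm4a, Kdm4b, Kdm4c, Kdm5b, Kdm6a and Kdm6b. They were chosen by name, as a set of enzymes that need oxygen, with earlier results of these data known. Each symbol was matched to 1 Ensembl identifier. They are 9 of the 20201 genes in the table, and all 9 averaged at least 10 normalized counts, the minimum that the 12553 tested genes had to reach. A normalized count is a read count divided by a size factor of its library.

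RNA was sequenced from primary mouse myotubes, the multinucleated muscle cells that cultured myoblasts form by fusion. All cells carried a floxed Bmal1 gene and all received an adenovirus for 48 hours, either carrying Cre, a recombinase that cuts out floxed DNA, or empty, and then spent 6 hours in 1% or 21% oxygen. The sample labels give only 2 combinations: 6 libraries labelled Bmal1 knockout with 1% oxygen (called KO) and 6 labelled wildtype with 21% oxygen (called WT), which by the protocol are floxed cells with the empty virus. Titles number the libraries 1 to 12, and the numbers form 4 sets of 3: KO libraries 10 to 12, KO libraries 4 to 6, WT libraries 7 to 9 and WT libraries 1 to 3. These sets are runs of title numbers, and no oxygen level was assigned to them here. No label ties a library to an animal, a culture or a batch, and the p-values below therefore rest on the spread among libraries, which could be only technical. Knockout by an adenovirus in culture can leave some cells without recombination, and the share of such cells was not measured.

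The genotype label was followed by Arntl, the gene of BMAL1, at 41.7 to 48.6 normalized counts in the 6 KO libraries and 133 to 179 in the 6 WT libraries. The oxygen label was not followed by hypoxia-induced genes. Egln3, whose product hydroxylates the hypoxia-inducible factor HIF and which HIF induces, averaged 2078 ± 56.9 normalized counts in KO libraries 10 to 12, 219 ± 37.1 in KO libraries 4 to 6, 2225 ± 29.9 in WT libraries 7 to 9 and 251 ± 16.3 in WT libraries 1 to 3 (SD, n = 3 each). Of 10 such check genes, 10 were higher in libraries 10 to 12 than in 4 to 6, and 10 were higher in libraries 7 to 9 than in 1 to 3, whereas 0 passed between the 2 labels. The label comparison pools the sets, so their large differences widen its spread and make calls of these genes less likely. Within the sets, 2 were higher and 2 lower in KO libraries 4 to 6 than in WT libraries 1 to 3. Between KO libraries 10 to 12 and WT libraries 7 to 9, 0 passed. The libraries held 6376584 to 12463339 reads, of which 11 abundant genes took at least 51.2% in each. Library 2 (WT) stood apart: 29.6% of genes were at 0 in it, against 13.0% to 21.9% in the other 11, and 8 of the 9 demethylase genes lay above the mean of its set there. The share of all genes that did so was not counted, so this is not shown to be particular to the demethylase genes.

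JmjC demethylases remove methyl groups from histone lysines by hydroxylating them, a reaction that consumes oxygen and 2-oxoglutarate and needs iron in the catalytic site. They share this chemistry with the prolyl hydroxylases that sense oxygen for HIF, and several of their genes are known targets of HIF in other cells. KDM2 enzymes act on H3K36 methylation, KDM3A on mono- and dimethylated H3K9, KDM4 enzymes on trimethylated H3K9 and H3K36, KDM5 enzymes on H3K4 methylation, and KDM6 enzymes on the Polycomb mark, trimethylated H3K27. In muscle, removal of the Polycomb mark is known to accompany activation of differentiation genes.

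Promoter windows are shown for Kdm3a, Kdm5b, Kdm4c and Kdm6a, as examples chosen with their values known. Kdm3a and Kdm5b differed between sets of libraries, and Kdm6a was lower in KO libraries. Kdm4c did not pass between the labels in the fit without a term for the sets. In the fits as reported it passed as lower only in the later-numbered KO set against the later-numbered WT set, with overlapping values. Kdm4a, which did pass as lower between the labels, is not printed, so the printed windows do not stand for the genes lower in KO. RefSeq (GRCm38.p6) gave 300-base windows around annotated starts for 6 of the 9 genes, 12 windows in all. Kdm2a, Kdm4b and Kdm6b had no window in that table. The windows were searched on both strands for ACGTG and GCGTG, the core that HIF binds, and for CACGTG, the E-box that BMAL1 binds with CLOCK, which itself holds ACGTG on each strand. Capitals mark the matches, written as they read on the gene's strand, so that CACGC is GCGTG on the other strand.
Kdm3a, chr6:71632868-71633167, minus strand: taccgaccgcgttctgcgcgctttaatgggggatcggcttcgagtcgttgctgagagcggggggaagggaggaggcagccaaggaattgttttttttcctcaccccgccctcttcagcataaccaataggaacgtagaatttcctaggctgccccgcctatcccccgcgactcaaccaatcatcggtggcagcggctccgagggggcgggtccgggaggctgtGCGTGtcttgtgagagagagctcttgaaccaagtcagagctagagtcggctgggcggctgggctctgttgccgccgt
Kdm5b, chr1:134559928-134560227, plus strand: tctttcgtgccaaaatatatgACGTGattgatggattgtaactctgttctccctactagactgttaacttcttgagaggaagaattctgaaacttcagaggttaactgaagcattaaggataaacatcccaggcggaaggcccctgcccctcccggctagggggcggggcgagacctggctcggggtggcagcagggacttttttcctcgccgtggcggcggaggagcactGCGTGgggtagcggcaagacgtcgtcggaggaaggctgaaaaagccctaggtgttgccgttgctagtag
Kdm4c, chr4:74251629-74251928, plus strand: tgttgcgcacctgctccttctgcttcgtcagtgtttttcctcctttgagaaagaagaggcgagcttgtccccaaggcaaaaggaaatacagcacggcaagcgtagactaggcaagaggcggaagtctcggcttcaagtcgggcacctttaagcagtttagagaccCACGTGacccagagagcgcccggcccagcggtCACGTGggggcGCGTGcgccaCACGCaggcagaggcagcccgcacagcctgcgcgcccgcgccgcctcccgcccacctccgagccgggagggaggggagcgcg
Kdm6a, chrX:18162325-18162624, plus strand: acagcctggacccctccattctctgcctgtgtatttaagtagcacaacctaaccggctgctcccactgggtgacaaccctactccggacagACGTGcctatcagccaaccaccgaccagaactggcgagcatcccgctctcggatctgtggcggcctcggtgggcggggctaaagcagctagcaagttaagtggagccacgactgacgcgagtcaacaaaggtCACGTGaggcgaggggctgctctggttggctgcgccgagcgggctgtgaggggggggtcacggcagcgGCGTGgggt
Kdm3a had 3 windows: the printed one held 1 GCGTG and the other 2 held none of the motifs. Kdm4c had 2 windows: the printed one, at an annotated start inside the gene, held 2 E-boxes and 2 further GCGTG cores, and the one at its first start held none. The single Kdm5b window held 1 ACGTG and 1 GCGTG, and the single Kdm6a window held 1 E-box, 1 ACGTG outside it and 1 GCGTG. The single Kdm4a window held none, and the 4 Kdm2b windows held 1 to 3 GCGTG each and no E-box. An HIF core was present in 8 of the 12 windows (66.7%) and in 43.8% of 32851 RefSeq promoter windows of the same length. An E-box was present in 2 of the 12 (16.7%) and in 7.15% of all. Windows of 1 gene can overlap, as those of Kdm2b do, and the 4 Kdm2b windows count among the 8 with an HIF core. Both cores contain CG, and the windows were not matched to all promoters for CG content. These shares are therefore not shown to be particular to the demethylase genes. A match of letters does not show binding.

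The first comparison set KO libraries 10 to 12 against KO libraries 4 to 6. It showed higher transcript levels of 5 of the 9 demethylase genes in libraries 10 to 12: Kdm6b, Kdm3a, Kdm4b, Kdm5b and Kdm2a, by 1.71- to 2.88-fold, whereas Kdm2b, Kdm4a, Kdm4c and Kdm6a did not pass. Of all genes tested, 11.2% were called higher in this comparison and 7.89% lower. The median log2 fold change was 0.77 over the 9 genes and -0.02 over all genes. In the WT libraries, the comparison of 7 to 9 with 1 to 3 also called 5 of the 9 higher: Kdm3a, Kdm6b, Kdm4b, Kdm5b and Kdm4c, by 1.49- to 2.24-fold. There, 9.79% of all genes were called higher and 6.96% lower, and the median was 0.58 over the 9 genes and 0.01 over all genes. Calls are at an adjusted p below 0.05 by limma's two-sided test on log2(normalized count + 1), where p-values were adjusted over all genes tested by the method of Benjamini and Hochberg. Without overlap between the sets, 5 of the 9 genes stood higher in each comparison, beside 19.9% of all genes in the KO libraries and 17.6% in the WT libraries, and 0 of the 9 stood lower, beside 19.9% and 16.3%. An alternative setting left out the 11 abundant genes and also rescaled each library by the total of its remaining reads. With the 11 abundant genes left out in this way, calls over all genes were 1142 higher and 1510 lower between the KO sets, against 1401 and 990 as reported. Between the WT sets they were 943 and 1409, against 1229 and 874, and the calls of the 9 genes changed only for Kdm4c. The shares over all genes vary with the libraries: without library 4 or 5 the lower calls between the KO sets were 656 and 647, without library 2 they were 1535, and without library 7, 8 or 9 those between the WT sets were 512, 557 and 554. In both comparisons 0 of the 9 were called lower, and also 0 by edgeR, by DESeq2 and at an unadjusted p below 0.05. In bulk RNA, fewer cells of a type and less RNA per cell cannot be told apart.

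**Figure D1:**
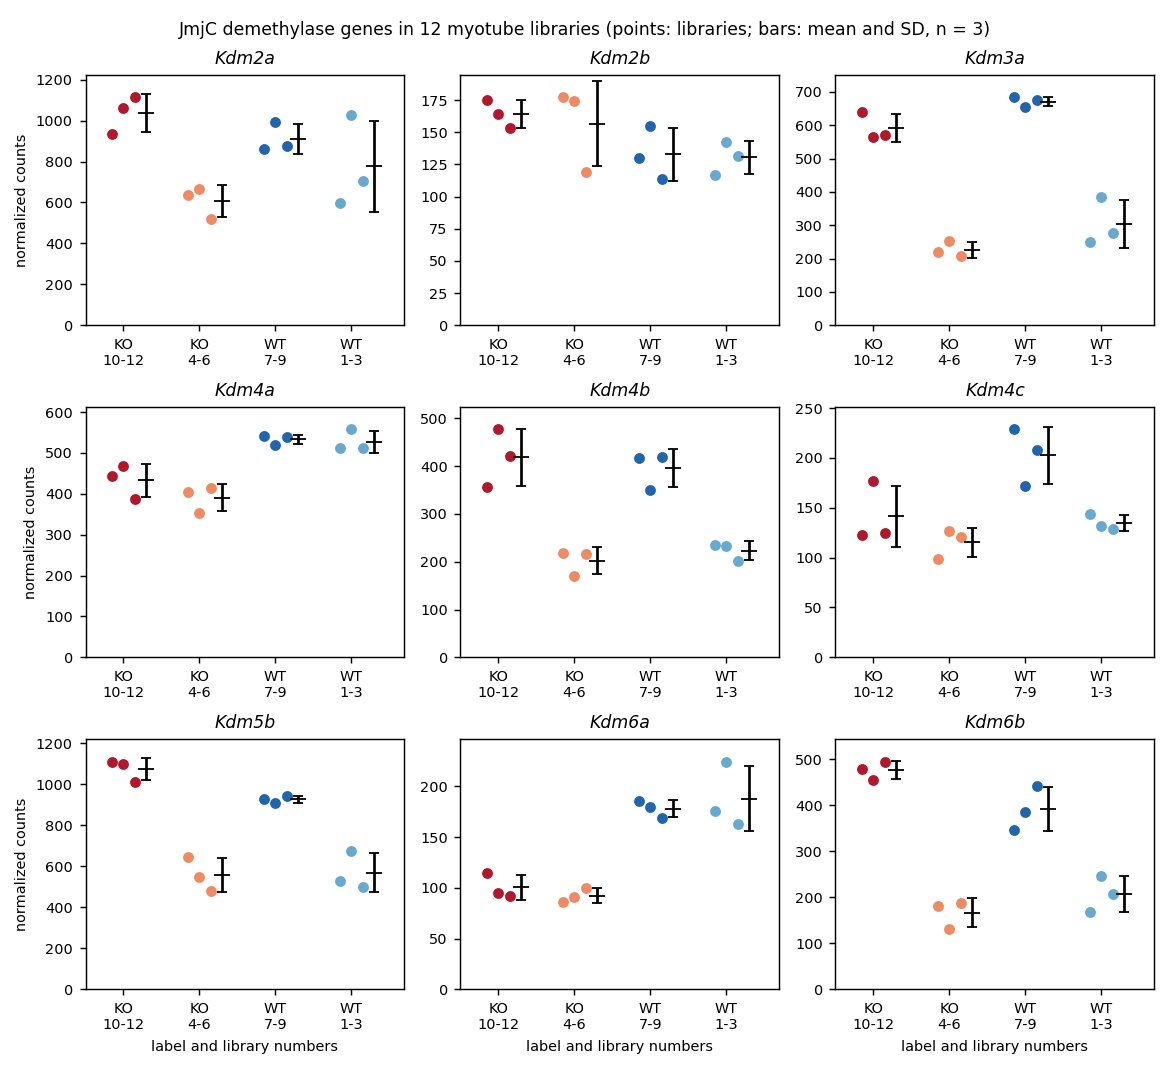
Normalized counts (vertical axes, from 0) of the 9 demethylase genes in each library, with the libraries grouped by label and title number along the horizontal axes. Points are libraries and bars are the mean and SD of 3 libraries: Kdm3a, Kdm4b, Kdm5b and Kdm6b stand high in KO 10-12 and WT 7-9, whereas Kdm4a and Kdm6a stand lower in every KO library than in any WT library.

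Kdm3a (ENSMUSG00000053470, chromosome 6, 71588972 to 71632990, minus strand, mm10) encodes a demethylase of H3K9 that is known as a HIF target. It had 640, 563 and 571 normalized counts in KO libraries 10, 11 and 12, 218, 254 and 208 in KO libraries 4, 5 and 6, 684, 655 and 674 in WT libraries 7, 8 and 9, and 251, 386 and 276 in WT libraries 1, 2 and 3. All 6 values of the later-numbered libraries lay above all 6 of the earlier-numbered ones. It was 2.61-fold higher in KO libraries 10 to 12 than in KO libraries 4 to 6 (log2 fold change 1.38, SE 0.14, adjusted p = 1.19e-05, limma). It was 2.24-fold higher in WT libraries 7 to 9 than in WT libraries 1 to 3 (1.16, SE 0.14, adjusted p = 6.46e-05, limma). Library 2 had the highest value of its set, and without it the WT difference was 1.35 on the log2 scale.

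Kdm6b (ENSMUSG00000018476, chromosome 11, 69398508 to 69413675, minus strand) encodes an H3K27 demethylase that is known as a gene inducible by inflammatory and stress signals. It had 480, 455 and 495 normalized counts in KO libraries 10 to 12, 182, 131 and 188 in KO libraries 4 to 6, 346, 386 and 441 in WT libraries 7 to 9, and 168, 246 and 206 in WT libraries 1 to 3. The later-numbered libraries again lay above the earlier-numbered ones without overlap, in each label. The difference was 2.88-fold between the KO sets (log2 1.53, SE 0.16, adjusted p = 1.97e-05, limma) and 1.90-fold between the WT sets (0.93, SE 0.16, adjusted p = 0.00136, limma). The KO value was the largest difference of the 9 genes in any of the comparisons. An opposite-strand gene, Kdm6bos, overlaps its exons, has no row in the table, and could share reads, since the sources used here do not state whether counting used strand.

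Kdm4b (ENSMUSG00000024201, chromosome 17, 56326062 to 56402870, plus strand) and Kdm5b (ENSMUSG00000042207, chromosome 1, 134560171 to 134635285, plus strand) encode demethylases of H3K9 and of H3K4. Kdm4b had 357, 477 and 421 normalized counts in KO libraries 10 to 12, 219, 169 and 217 in KO libraries 4 to 6, 417, 349 and 420 in WT libraries 7 to 9, and 236, 232 and 201 in WT libraries 1 to 3. Kdm5b had 1111, 1097 and 1014 in KO libraries 10 to 12, 646, 550 and 482 in KO libraries 4 to 6, 928, 911 and 941 in WT libraries 7 to 9, and 529, 677 and 499 in WT libraries 1 to 3. For both genes all later-numbered libraries lay above all earlier-numbered ones. Kdm4b was 2.07-fold higher between the KO sets (log2 1.05, SE 0.13, adjusted p = 0.000121, limma) and 1.77-fold between the WT sets (0.82, SE 0.13, adjusted p = 0.000964, limma). Kdm5b was 1.93-fold higher between the KO sets (0.95, SE 0.12, adjusted p = 9.30e-05, limma) and 1.64-fold between the WT sets (0.72, SE 0.12, adjusted p = 0.00101, limma). These differences, unlike those of Kdm2a and Kdm4c below, passed in each label under all the alternative settings run.

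Kdm2a (ENSMUSG00000054611, chromosome 19, 4314419 to 4398285, minus strand), an H3K36 demethylase gene whose protein binds unmethylated CpG islands, passed between the KO sets. It had 934, 1063 and 1114 normalized counts in KO libraries 10 to 12, against 638, 667 and 521 in KO libraries 4 to 6, 1.71-fold higher without overlap (log2 0.77, SE 0.16, adjusted p = 0.00516, limma). In the WT libraries it had 861, 995 and 875 in 7 to 9, against 595, 1027 and 705 in 1 to 3, and these sets overlapped through library 2. The WT difference of 0.27 did not pass (adjusted p = 0.302, limma). Without library 2 it was 0.49 (adjusted p = 0.0114, limma), so this library decides the call.

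Kdm4c (ENSMUSG00000028397, chromosome 4, 74242497 to 74405860, plus strand), a paralog of Kdm4b, passed between the WT sets. It had 229, 172 and 208 normalized counts in WT libraries 7 to 9, against 144, 132 and 129 in WT libraries 1 to 3, 1.49-fold higher (log2 0.58, SE 0.16, adjusted p = 0.0278, limma). In the KO libraries it had 123, 177 and 125 in 10 to 12, against 98.9, 127 and 121 in 4 to 6, and the sets overlapped (0.28, adjusted p = 0.273, limma). Its WT call was lost without library 3, 7 or 9 (adjusted p = 0.0648, 0.118 and 0.0880, limma) and with the 11 abundant genes left out (adjusted p = 0.0574, limma).

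Kdm2b, Kdm4a and Kdm6a did not pass between the sets of either label. Kdm2b (ENSMUSG00000029475, chromosome 5, 122870665 to 122989823, minus strand), whose protein recruits the Polycomb complex PRC1.1 to CpG islands, had 175, 164 and 154 normalized counts in KO libraries 10 to 12, 177, 174 and 119 in KO libraries 4 to 6, 130, 155 and 113 in WT libraries 7 to 9, and 117, 142 and 132 in WT libraries 1 to 3. Its differences were 0.09 between the KO sets (95% interval -0.27 to 0.45) and 0.02 between the WT sets (-0.34 to 0.38). For Kdm4a the intervals were -0.05 to 0.34 between the KO sets and -0.18 to 0.21 between the WT sets. For Kdm6a they were -0.18 to 0.43 and -0.37 to 0.24. These intervals exclude the fold differences seen for Kdm3a in each label and leave room for smaller ones. Exons of Kdm2b overlap those of Rnf34 and A930024E05Rik on the opposite strand and those of Gm44574, which has no row in the table, on the same strand, so reads may be shared.

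**Figure D2:**
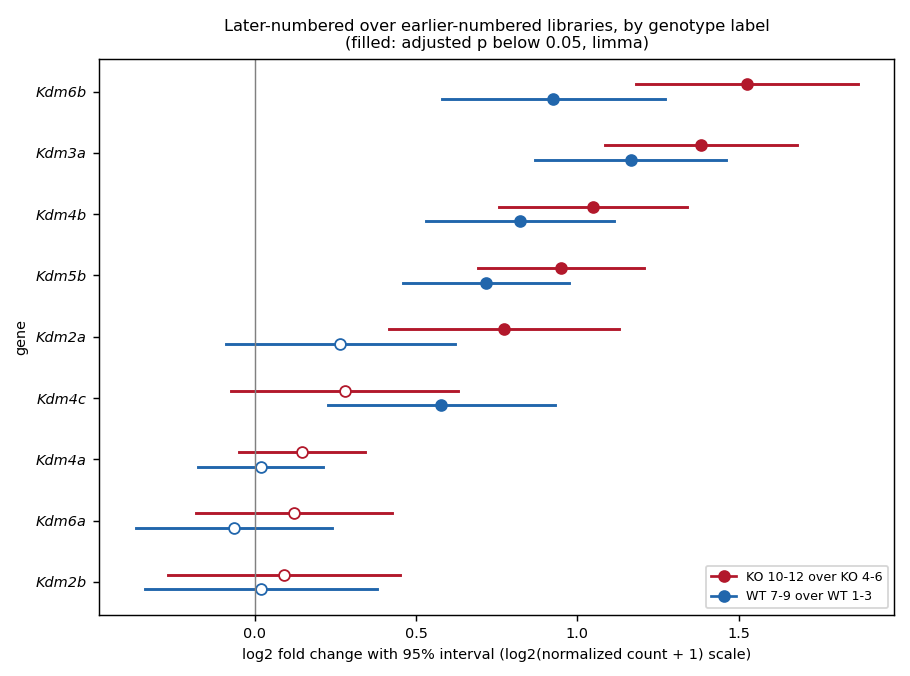
Log2 fold change, on the log2(normalized count + 1) scale along the horizontal axis, of each demethylase gene for KO 10-12 over KO 4-6 and for WT 7-9 over WT 1-3, with 95% intervals from the limma fit; filled points have an adjusted p below 0.05. Kdm6b, Kdm3a, Kdm4b and Kdm5b are filled in each label, Kdm2a only for the KO sets and Kdm4c only for the WT sets.

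Whether the set difference itself depended on the genotype label was tested as the difference between the KO and WT differences, which is the same contrast as the difference between the 2 KO-against-WT comparisons. It was called for 0 of the 9 genes by limma, 0 by edgeR and 0 by DESeq2 after adjustment. Limma gave 2 genes an unadjusted p below 0.05, Kdm6b (difference 0.60, 95% interval 0.11 to 1.09, adjusted p = 0.553) and Kdm2a (0.51, adjusted p = 0.583). Of all genes tested, limma called 0.00797%, edgeR called 0, and DESeq2 called 16 higher and 13 lower. The call of Kdm2a in the KO libraries and of Kdm4c in the WT libraries is therefore not shown to differ between the labels.

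Values of other cell types beside these set differences were as follows. The summed adipocyte markers, of which Fabp4 and Adipoq had rows, were 224 to 258 normalized counts in KO libraries 10 to 12, 111 to 147 in KO libraries 4 to 6, 210 to 226 in WT libraries 7 to 9 and 97.2 to 123 in WT libraries 1 to 3. This sum was nearly all Fabp4, and Adipoq did not exceed 0.934 in any library. Fibroblast marker sums were 126116 to 132167 in KO libraries 10 to 12, 99578 to 112089 in KO libraries 4 to 6, 100177 to 112189 in WT libraries 7 to 9 and 97489 to 107282 in WT libraries 1 to 3. Endothelial marker sums were 1261 to 1423 in KO libraries 10 to 12, 1164 to 1223 in KO libraries 4 to 6, 901 to 969 in WT libraries 7 to 9 and 854 to 968 in WT libraries 1 to 3. The fibroblast and endothelial sums thus did not overlap between the KO sets and overlapped between the WT sets. Myotube marker sums overlapped between the sets of a label: 27780 to 29226 in KO libraries 10 to 12, 26630 to 28782 in KO libraries 4 to 6, 15324 to 18710 in WT libraries 7 to 9 and 14128 to 15743 in WT libraries 1 to 3. The part of these values in the set differences was not tested.

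The comparison given by the labels set the 6 KO libraries against the 6 WT libraries. It called Kdm6a and Kdm4a lower in the KO libraries, 1.89- and 1.29-fold, and the other 7 demethylase genes did not pass. Of all genes tested, 9.07% were called lower and 10.2% higher. The median log2 fold change was -0.07 over the 9 genes and 0.00 over all genes. No demethylase gene was called higher (0 by limma, edgeR and DESeq2 after adjustment, and 1 at an unadjusted p below 0.05, Kdm2b). These 2 genes were also those whose 6 KO values all lay below all 6 WT values, as did 5.38% of all genes, and 0 of the 9 lay wholly above, as did 7.07%. With the 11 abundant genes left out and the libraries rescaled by their remaining reads, calls over all genes were 631 higher and 2122 lower. As reported they were 1277 and 1139, and Kdm6a and Kdm4a stayed called lower. The label fit had no term for the sets, so differences between sets entered its spread. The SE of Kdm3a was 0.36 in it and 0.098 with the set as a term. With that term Kdm3a and Kdm4c also passed as lower, as given below. Genotype and oxygen go together in the labels, so the labels alone cannot tell their parts apart. The 10 hypoxia-induced check genes did not follow the oxygen label, and their median log2 fold change between the labels was 0.005. Each label held a set of libraries where these genes were high and a set where they were low. The part of oxygen in this comparison was not tested.

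Kdm6a (ENSMUSG00000037369, chromosome X, 18162575 to 18279936, plus strand) encodes UTX, an H3K27 demethylase that also acts as a subunit of the KMT2C and KMT2D complexes, which methylate H3K4 at enhancers. It had 115, 94.6 and 92.5 normalized counts in KO libraries 10 to 12, 85.7, 90.8 and 100.3 in KO libraries 4 to 6, 186, 180 and 169 in WT libraries 7 to 9, and 176, 225 and 164 in WT libraries 1 to 3. The highest KO value lay well below the lowest WT value. Means were 96.5 ± 10.3 in KO and 183 ± 21.7 in WT (SD, n = 6 each), a log2 fold change of -0.92 (SE 0.10, adjusted p = 4.25e-05, limma). The difference was present within both sets, 1.77-fold lower in KO libraries 10 to 12 than in WT libraries 7 to 9 (log2 -0.82, adjusted p = 0.00172, limma) and 2.01-fold lower in KO libraries 4 to 6 than in WT libraries 1 to 3 (-1.01, adjusted p = 0.000336, limma). Kdm6a kept its call in all 3 comparisons under every alternative setting run. Reads of Kdm6a can be hard to tell from those of Uty, its copy on the Y chromosome, and the counting tool shares such reads by estimate.

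Kdm4a (ENSMUSG00000033326, chromosome 4, 118136957 to 118180043, minus strand) encodes a demethylase of trimethylated H3K9 and H3K36. It had 443, 468 and 388 normalized counts in KO libraries 10 to 12, 405, 352 and 414 in KO libraries 4 to 6, 541, 519 and 540 in WT libraries 7 to 9, and 512, 558 and 511 in WT libraries 1 to 3. Its WT values spread little and all lay above its KO values. Means were 412 ± 40.6 in KO and 530 ± 18.8 in WT (SD, n = 6 each), a log2 fold change of -0.37 (SE 0.07, adjusted p = 0.00299, limma). The difference was -0.30 in KO libraries 10 to 12 against WT libraries 7 to 9 (adjusted p = 0.0354, limma) and -0.43 in KO libraries 4 to 6 against WT libraries 1 to 3 (adjusted p = 0.00501, limma). The call between libraries 10 to 12 and 7 to 9 was lost without library 7, 8, 9, 10 or 12 (adjusted p = 0.0665 to 0.141, limma) and without a filter on low values (adjusted p = 0.0503, limma).

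Within the sets, 3 of the 9 genes were lower in KO libraries 10 to 12 than in WT libraries 7 to 9: Kdm6a, Kdm4a and Kdm4c, where 7.64% of all genes were called lower and 8.84% higher. In KO libraries 4 to 6 against WT libraries 1 to 3, 2 of the 9 were lower, Kdm6a and Kdm4a, where 7.97% of all genes were called lower and 10.8% higher. DESeq2 called 3 lower in this comparison, Kdm3a being the third. Without library 7, 8 or 9 the lower calls over all genes in the first comparison were 501, 628 and 610, against 959 as reported, and without library 7 the higher calls were 689, against 1110. Without library 2 they were 1417 lower and 1665 higher, and without library 4 the higher calls in the second comparison were 904, against 1357. Demethylase genes called higher numbered 0 in each comparison, by limma, edgeR and DESeq2 and at an unadjusted p below 0.05. The median log2 fold change over the 9 genes was 0.07 in the first of these comparisons and -0.31 in the second, beside 0.00 over all genes in each. Without overlap, 3 of the 9 were lower (19.2% of all genes) and 2 higher (21% of all genes) in KO libraries 10 to 12, and 3 were lower (16.5%) and 0 higher (18%) in KO libraries 4 to 6. With the 11 abundant genes left out, calls over all genes were 546 higher and 1798 lower in the first comparison, against 1110 and 959 as reported, and 741 higher with a larger number lower in the second, against 1357 and 1001. In this second comparison, Kdm3a, Kdm2a and Kdm6b were then also called lower (adjusted p = 0.0106, 0.0467 and 0.0449, limma), which made 5 of the 9. Kdm4c had 123, 177 and 125 normalized counts in KO libraries 10 to 12, against 229, 172 and 208 in WT libraries 7 to 9, and the values overlapped. Its difference of -0.53 (SE 0.16, adjusted p = 0.0429, limma) was past the threshold by little. The call was lost with the difference unchanged at -0.53 without library 1, 3, 5 or 6 (adjusted p = 0.0506 to 0.0579, limma) or without a filter (0.0590), and at -0.51 with upper-quartile scaling (0.0504) or quantile normalization (0.0522). Without library 7, 9, 10 or 12 it was -0.50 to -0.44 and not called (adjusted p = 0.121 to 0.170, limma).

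**Figure D3:**
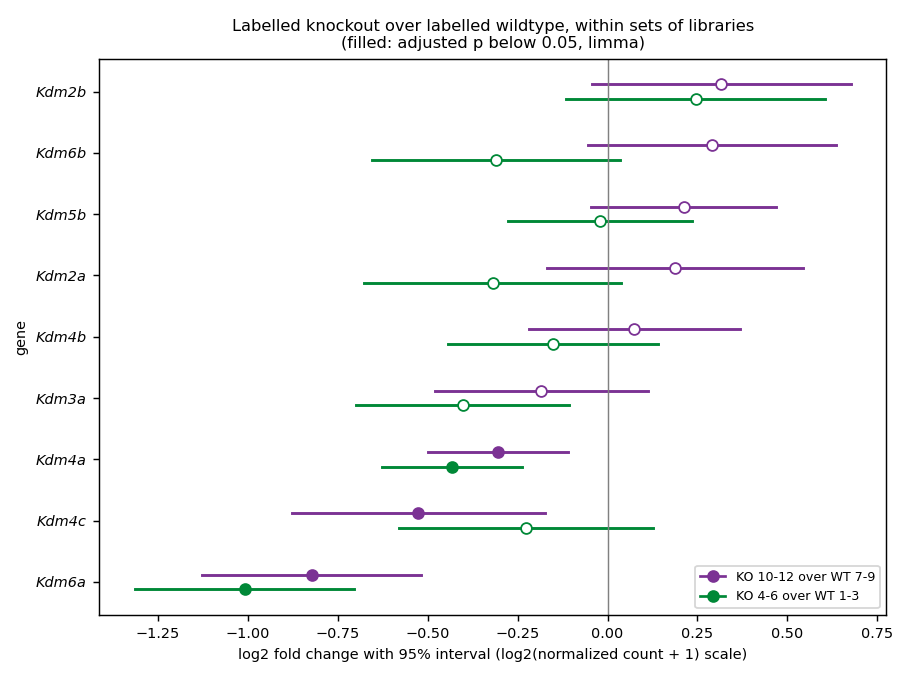
Log2 fold change, on the log2(normalized count + 1) scale along the horizontal axis, of KO 10-12 over WT 7-9 and of KO 4-6 over WT 1-3 for each demethylase gene, with 95% intervals from the limma fit; filled points have an adjusted p below 0.05. Kdm6a and Kdm4a are filled and left of 0 in each set, and Kdm4c in the first only.

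Kdm3a did not pass between the labels, although its mean was lower in both KO sets than in their WT counterparts. Its values in KO libraries 10 to 12 lay below those in WT libraries 7 to 9 without overlap, at means of 591 ± 41.9 and 671 ± 14.6 (SD, n = 3 each), and the log2 difference of -0.18 did not pass (adjusted p = 0.413, limma). In KO libraries 4 to 6 its mean was 227 ± 24.2, against 304 ± 71.7 in WT libraries 1 to 3, a difference of -0.40 (adjusted p = 0.0577, limma). This difference was close to the threshold and its call depended on the setting. It passed with DESeq2 (adjusted p = 0.0280), quantile normalization (0.0393), TMM scaling (0.04996), a minimum mean of 50 (0.0497) and without library 1 (-0.53, adjusted p = 0.0190), and was -0.22 without library 2 (adjusted p = 0.134, limma). With the set of title numbers as a term in the label comparison, Kdm3a (-0.29, adjusted p = 0.0372, limma) and Kdm4c (-0.38, adjusted p = 0.0279, limma) also passed, which brought the demethylase genes lower in KO to 4. Calls over all genes rose in that setting too, to 2000 higher and 1785 lower of 12553, against 1277 and 1139 as reported. Kdm5b and Kdm6b in KO libraries 10 to 12 lay above WT libraries 7 to 9 without overlap, and neither passed (log2 0.21 and 0.29, adjusted p = 0.261 and 0.253, limma). Kdm2b was at 119 to 177 normalized counts in KO, median 169, and at 113 to 155 in WT, median 131, and did not pass (log2 0.28, adjusted p = 0.117, limma).

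Markers of cell types differed between the labels. All 10 myotube markers reached the minimum mean, of which 6 were higher and 2 lower in the KO libraries, and the sum of the 10 was 26630 to 29226 normalized counts in KO, against 14128 to 18710 in WT. Acta1 and Des led the KO sum, at 8702 to 10060 and 7802 to 8355, against 3547 to 5067 and 3466 to 4419 in WT. Myh1 went the other way, at 379 to 472 in KO and 652 to 1098 in WT. Myh3 overlapped, at 3109 to 3532 in KO and 2925 to 3858 in WT. The sum is thus not a measure of myotube share. Of 5 myoblast markers 3 were lower in KO, with sums of 780 to 988 in KO and 973 to 1161 in WT, and of 5 endothelial markers 2 were higher, with sums of 1164 to 1423 in KO and 854 to 969 in WT. Fibroblast markers were abundant in every library, led by Col1a1, with sums of 99578 to 132167 in KO and 97489 to 112189 in WT, and 1 of 7 was higher and 1 lower. Macrophage markers summed to 27.3 to 59.1 in KO and 20.5 to 32.1 in WT, and Ptprc, which defines blood cells, did not exceed 1.95 in any library. The part of these differences in the results for Kdm6a and Kdm4a was not tested.

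Compared per length, as normalized counts per kilobase of merged exons, Kdm4a had the highest level of the 9 genes in 3 of the 4 sets. In WT libraries 7 to 9 the order of levels was Kdm4a (92.2 ± 2.08), Kdm3a (81.6 ± 1.78), Kdm4b (80.8 ± 8.13), Kdm2a (63.0 ± 5.13), Kdm6b (56.3 ± 6.85), Kdm5b (56.0 ± 0.936), Kdm4c (34.8 ± 4.93), Kdm6a (21.2 ± 0.991) and Kdm2b (12.2 ± 1.92; SD, n = 3 each). There, the means ± SD of Kdm3a and Kdm4b overlapped, as did those of Kdm2a and Kdm6b and of Kdm6b and Kdm5b. In WT libraries 1 to 3 Kdm4a stood alone at 91.1 ± 4.62, followed by Kdm2a at 53.7 ± 15.5 and Kdm4b at 45.6 ± 3.94, and from Kdm2a down to Kdm6a each neighbour overlapped the next. In KO libraries 10 to 12 the first 6 genes, Kdm4b (85.4 ± 12.2), Kdm4a, Kdm3a, Kdm2a, Kdm6b and Kdm5b (64.9 ± 3.19), overlapped each with the next. Below them came Kdm4c at 24.3 ± 5.26, Kdm2b at 15.1 ± 1.01 and Kdm6a last, each apart from the one above it. In KO libraries 4 to 6 Kdm4a, at 67.6 ± 5.83, stood alone above Kdm2a (42.1 ± 5.35) and Kdm4b (41.2 ± 5.75), and from Kdm2a down each neighbour overlapped the next. Kdm6a ranked last in both KO sets and Kdm2b in both WT sets.

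The 9 genes fell into patterns that their correlations over the 12 libraries describe. These correlations rest on libraries that share their sets and depth, and are given without a test. Kdm3a, Kdm4b, Kdm5b and Kdm6b had pairwise Pearson correlations of 0.90 to 0.94 on the log2 scale, and Kdm4a and Kdm6a had 0.91. Kdm2b was negatively correlated with Kdm4a (-0.56) and Kdm6a (-0.56), and near 0 with Kdm4b (-0.01). Over 9188 named genes that averaged at least 50 normalized counts, those most like Kdm3a were Ccng2 (0.99) and Vegfa (0.99), the gene of the vascular growth factor that low oxygen induces. The most like Kdm6b were Bcl9l (0.99) and Tnks (0.99), the most like Kdm4b were Atp11b (0.98) and Kremen1 (0.98), and the most like Kdm5b were Pgk1-rs7 (0.98), a near-identical copy of Pgk1 whose reads are uncertain, and Plod1 (0.98). Kdm6a was most like Gab2 (0.98) and Nrip1 (0.98), Kdm4a most like Pde4b (0.95) and Popdc3 (0.94), and Kdm2a most like Smad7 (0.96) and Rbm4b (0.95). Kdm4c was most like Mapk8 (0.94) and Ksr1 (0.91), and Kdm2b most like Ncapd2 (0.87) and Colgalt1 (0.84).

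Of 14 further JmjC demethylase genes, 13 were tested. Between the KO sets 4 of the 13 were higher in libraries 10 to 12 and 1 was lower, beside 11.2% and 7.89% of all genes. Between the WT sets 2 of the 13 were higher in libraries 7 to 9 and 0 lower, beside 9.79% and 6.96% of all genes. Their median log2 fold changes were 0.29 and 0.22, against 0.77 and 0.58 for the 9 genes. The 9 genes were chosen with earlier results of these data known, so their larger medians can partly follow from that choice. Kdm5a, the paralog of Kdm5b, averaged 804 ± 181 normalized counts in KO libraries 10 to 12, 426 ± 60.1 in KO libraries 4 to 6, 923 ± 127 in WT libraries 7 to 9 and 500.2 ± 82.3 in WT libraries 1 to 3 (SD, n = 3 each). It passed in each label (log2 0.90 and 0.89, adjusted p = 0.00239 and 0.00305, limma). Uty, the Y-linked copy of Kdm6a, was lower in KO libraries 10 to 12 than in WT libraries 7 to 9 (log2 -0.40, adjusted p = 0.0209, limma) and in KO libraries 4 to 6 than in WT libraries 1 to 3 (-0.33, adjusted p = 0.0499, limma). Unlike Kdm6a, it was also called higher between the sets of each label (0.40 in KO and 0.48 in WT). Jmjd1c, a relative of Kdm3a, was the only one of the 13 called between the labels, lower in KO (-0.53, adjusted p = 0.0356, limma) with overlapping values. Within the sets Jmjd1c was called lower only in KO libraries 4 to 6 against WT libraries 1 to 3.

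Among 8 JmjC proteins that act on other substrates or lack the activity, Jarid2, an inactive relative of Kdm5b in the Polycomb complex PRC2, and Jmjd6, a lysyl hydroxylase of splicing factors, were called higher between the sets of each label, and 0 of the other 6 were. Jarid2 differed by 1.68 between the KO sets and by 0.99 between the WT sets on the log2 scale, and Jmjd6 by 1.53 and 1.66. Of 12 TET and ALKBH genes, which encode nucleic acid dioxygenases with the same cofactors, 2 were higher between the KO sets and 2 were higher and 1 lower between the WT sets: Tet2 (1.56 and 0.91), Alkbh5 (0.80 and 0.83) and, lower, Alkbh8 (-0.68). Of all genes tested, 11.2% were called higher between the KO sets, and 9.79% higher and 6.96% lower between the WT sets. The counts of these lists are therefore not read as results about the lists. Kdm1a, which demethylates H3K4 with FAD in place of oxygen-activating iron, was not called between sets and was lower in KO (-0.33, adjusted p = 0.00863, limma), with Kdm1b not called.

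**Figure D4:**
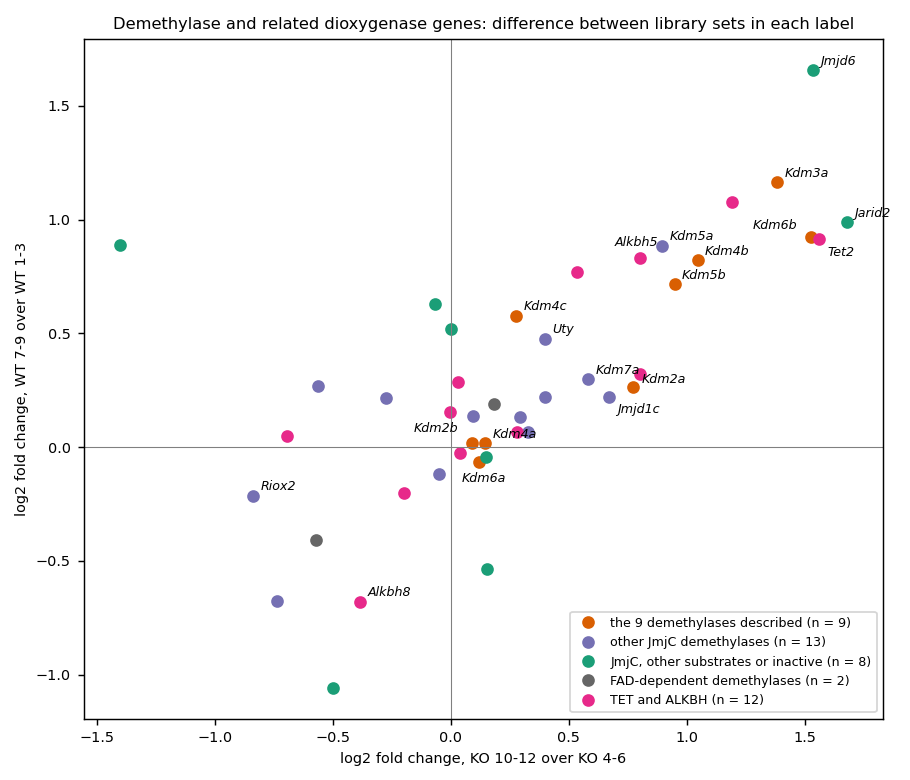
Log2 fold change of KO 10-12 over KO 4-6 (horizontal axis) against WT 7-9 over WT 1-3 (vertical axis) for the 9 demethylase genes and for related demethylase and dioxygenase genes, on the log2(normalized count + 1) scale. Points are genes, colours are the gene lists, and names are given to the 9 genes and to list genes called on either axis: Kdm3a, Kdm4b, Kdm5b, Kdm6b, Kdm5a, Jarid2, Jmjd6, Tet2 and Alkbh5 lie far from 0 on both.

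Genes of the opposing methyltransferases and of partner complexes were counted against the 9.07% of all genes called lower and 10.2% called higher between the labels. For the Polycomb mark that Kdm6a and Kdm6b remove, 2 of 10 PRC2 genes were lower in KO, Mtf2 (log2 -0.68, adjusted p = 0.00321, limma) and the catalytic subunit Ezh2 (-0.55, adjusted p = 0.00925, limma), and 0 were higher. Values of both genes overlapped between the labels, and Ezh2 was not called in KO libraries 4 to 6 against WT libraries 1 to 3. For H3K4, 1 of 14 genes was higher in KO, Smyd1 (0.85, adjusted p = 4.71e-05, limma), a muscle gene, and 0 lower. For H3K36, 1 of 5 was lower, Nsd2 (-0.46, adjusted p = 0.00980, limma), and for H3K9, 0 of 7 passed. Among 10 measured partners of KDM2B and KDM6A, Ring1 was lower in KO (-0.67, adjusted p = 0.0309, limma), and Bcor was higher between the KO sets (0.96) and between the WT sets (0.56). Values of Ring1 overlapped between the labels. Nsd2 and Ring1 were called lower in KO libraries 10 to 12 against WT libraries 7 to 9 and not in 4 to 6 against 1 to 3.

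The last lists hold enzymes that make or use 2-oxoglutarate, succinate and fumarate, the co-substrate and the inhibitors of JmjC enzymes, and the HIF system. Of 17 such metabolic genes 8 were higher and 0 lower in KO, where 10.2% of all genes were called higher, with a median log2 fold change of 0.31. The succinate dehydrogenase genes Sdhd (0.77, adjusted p = 5.27e-05, limma) and Sdhb (0.66, adjusted p = 1.25e-05, limma) had the largest differences among those called. Of 7 tested HIF subunit and hydroxylase genes, 1 was called between the labels, Epas1, a HIF alpha subunit gene, higher in KO (0.70, adjusted p = 0.00186, limma). Hif1a, which encodes the other main alpha subunit, was lower in KO libraries 10 to 12 than in 4 to 6 (-0.62) and in WT libraries 7 to 9 than in 1 to 3 (-0.72), whereas Egln3 was higher by 3.25 and 3.14.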

How the data were processed

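Stranded total RNA libraries were made from 12 myotube samples, per the labels' protocols. The authors deposited a table of normalized counts, a signal per gene and library. Per the submitters' processing notes, Trimmomatic 0.33, STAR 2.5.2, RSEM 1.3.3, DESeq2 and mm10 were used. The annotation and the strand setting of the counting are not given in the sources used here. In each column, 100% of values were whole multiples of the lowest positive value within 1e-06, so reads could be recovered and 1 size factor per library is the only scaling. RSEM shares reads of near-identical genes by estimate.

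Symbols, coordinates and merged exon lengths came from GENCODE M21 (GRCm38), which held 98.9% of the 20201 identifiers, and promoters from RefSeq. On log2(normalized count + 1), limma 3.58.1 (trended prior, two-sided tests) was run as a fit of 2 labels and a fit of 4 sets over the 12553 genes that averaged at least 10, with Benjamini-Hochberg adjustment. The 7648 genes under that minimum were not tested. The scale understates changes of low genes. Demethylase genes had 59 to 1407 reads per library, and 3 reads correspond to 2.12 to 5.85 normalized counts, counting error only. Alternatives were pseudocounts 0.5 and 10, no filter and a mean of 50, upper-quartile, TMM and quantile scaling, library weights, the 11 most abundant genes left out, the set as a term, leaving out each library, and count tests of the recovered reads with edgeR 4.0.16 (quasi-likelihood) and DESeq2 1.42.0. Where the 11 genes were left out, the deposited size factors were replaced by the total of the remaining reads of each library. The fits were tested on simulated data. R 4.3.3 and Python 3.11.15 were used.

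The 9 genes, the sets, the gene lists and the tests were chosen with earlier results of these data known. Named were the 9 genes in each comparison, up to 2 called genes with the largest rise and 2 with the largest fall per list, and the 2 genes most like each of the 9 by Pearson correlation.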

Additional observations from a re-analysis of the deposited data

Results flagged for a closer look

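Of 18 groups of 6 libraries (9 demethylase genes, 2 labels), 2 had a library far from the others by Dixon's ratio, the gap to the nearest library divided by the range, with a critical value of 0.625 for 6 samples. Chance flags about 1 in 20 groups when all 6 values come from a single population. Each group here pools 2 sets of libraries, which differed for several of the genes, so that rate need not hold. Kdm4c in KO library 11 stood at 177 normalized counts, where the other 5 KO libraries ran from 98.9 to 127 (ratio 0.641). Kdm6a in WT library 2 stood at 225, where the other 5 WT libraries ran from 164 to 186 (ratio 0.639). Without library 2 the difference of Kdm6a between the labels was -0.86 on the log2 scale (adjusted p = 4.02e-05, limma).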

How the results depend on the processing

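The 9 genes were recomputed under 24 alternative settings, 1251 values in all, of which 1171 kept their direction and side of the threshold, 16 came past it, 21 fell short of it and 43 changed sign, 0 of these past the threshold in the alternative. Demethylase genes lower in KO numbered 4 in the label comparison with the set as a term (2 as reported), 1 in KO 10 to 12 against WT 7 to 9 without a filter (3 as reported) and 5 in KO 4 to 6 against WT 1 to 3 with the 11 abundant genes left out (2 as reported). Leaving out genes does not by itself change the values of the others, but that last setting also rescaled each library by its remaining reads. It moved the median of all genes to -0.16 (labels), -0.15 (10 to 12 against 7 to 9), -0.16 (4 to 6 against 1 to 3), -0.11 (KO sets) and -0.08 (WT sets), with lower calls the larger share in each. The causes were not tested. Leaving out 1 library gave 0 to 1 higher between the labels (Kdm2b without library 6), 1 to 3 lower in KO 10 to 12 (1 without library 7, 9, 10 or 12), 2 to 4 lower in KO 4 to 6 (4 without library 1), 5 to 5 higher between the KO sets and 4 to 6 between the WT sets (6 without library 2, 4 without library 3, 7 or 9). Over all genes, without library 2 or 3 up to 2 in each direction were called in the difference of differences, against 0 higher and 1 lower. No paired analysis was possible because the replicate numbers were given in accession order only and so tie no KO library to a WT library.

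Signs changed only for differences near 0. Between the labels these were Kdm6b with upper-quartile scaling (0.018), edgeR (0.097) and DESeq2 (0.097), Kdm5b with library weights (-0.15), quantile normalization (-0.019) and the abundant genes left out (-0.061), and Kdm4b with edgeR (0.00055). Within sets they were Kdm4b in KO 10 to 12 against WT 7 to 9 with quantile normalization (-7.65e-05) and the abundant genes left out (-0.080), and Kdm5b in KO 4 to 6 against WT 1 to 3 with upper-quartile scaling (0.019) and library weights (0.087). Between the WT sets they were Kdm4a with quantile normalization (-0.048) and the abundant genes left out (-0.071), Kdm2b with the abundant genes left out (-0.070) and Kdm6a with library weights (0.047). With 1 library left out, signs changed between the labels for Kdm5b (-0.011 to 0.23), Kdm4b (-0.18 to 0.12), Kdm6b (-0.17 to 0.21) and Kdm2a (-0.16 to 0.054), in KO 10 to 12 against WT 7 to 9 for Kdm4b (-0.025 to 0.18), in KO 4 to 6 against WT 1 to 3 for Kdm5b (-0.13 to 0.11), between the KO sets for Kdm2b (-0.096 to 0.19), between the WT sets for Kdm2b (-0.097 to 0.13), Kdm4a (-0.0026 to 0.060) and Kdm6a (-0.16 to 0.069), and in the difference of differences for Kdm2b (-0.12 to 0.19).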
